A study of Mus musculus with 32 samples.

Results

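The amino acid transporter families of mouse gastrocnemius muscle were described across genotype and time of day. The members were all genes of the table whose symbol begins with Slc1a, Slc3a, Slc6a, Slc7a, Slc36a, Slc38a or Slc43a and that had a value above 0 in any library. They numbered 53 of 16634 genes, 51 of them transporter genes. The other 2, Slc36a1os and Slc7a6os, match the pattern of symbols but are named for a neighbouring transporter gene. Rhythm and genotype were tested in the 29 members (28 transporter genes and Slc7a6os) that reached 1 FPKM in 4 or more of the 32 libraries, as 11975 genes did in all. FPKM values are fragment numbers normalised for transcript length and sequencing depth.

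Muscle was taken from 32 mice aged 10 weeks on a mixed background, 4 for each genotype at each of 4 Zeitgeber times (ZT, hours from lights on; 0, 6, 12 and 18). Mutant mice carried Sf1-Cre and 2 floxed Sirt1 alleles (Sf1-Cre; Sirt1loxP/loxP), and controls carried the floxed alleles without Cre (Sirt1loxP/loxP). The cross directs loss of SIRT1, an NAD-dependent deacetylase, to cells that express the driver gene for SF1, among them neurons of the ventromedial hypothalamus. The Cre transgene and the deletion go together in this design and cannot be told apart. The series asks how daily gene expression in muscle responds to this change in the brain.

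Amino acids cross cell membranes through carrier proteins, which differ in the amino acids they take, in whether they use the sodium or proton gradient, and in whether they exchange one amino acid for another. The Slc38 and Slc1 carriers move neutral or acidic amino acids with sodium. The Slc7 light chains exchange neutral or cationic amino acids, several of them bound to the heavy chain encoded by Slc3a2, while the Slc43 carriers work by facilitated diffusion. The Slc6 family takes up creatine, taurine, glycine and neurotransmitters, and the Slc36 carriers move small amino acids with protons. In skeletal muscle such carriers supply protein synthesis, exchange glutamine and alanine with the blood, and feed the mTORC1 kinase, which responds to amino acids at the lysosome.

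All 8 fibre markers were present in the libraries, with 1 of them listed at an exact 0 in some libraries. That gene, Acta1, was at 0 in 12 libraries (6 mutant and 6 control) and between 17234 and 23914 FPKM in the others, so an exact 0 was not read as absence. No member that was tested had an exact 0 in any library. Sirt1 in muscle was at 5.20 ± 0.731 FPKM in mutants and 5.47 ± 0.506 in controls (SD, n = 16 each), which does not check a deletion directed to other cells. Absolute depth is unknown, and relative depth, estimated from the spacing of low values, ran from 0.818 to 1.31. Of the libraries, 3 were taken to stand apart. Control ZT18 library 0 had the clock activator Arntl at 8.84 FPKM, against 3.53, 1.12 and 1.51 in the other libraries of its group, and the clock output gene Dbp at 23.5, against 47.6, 84.1 and 95.8. Mutant ZT0 library 2 lay farthest from 0 on the second principal component, at 42.6, with the next at 20.01. Mutant ZT12 library 1 lay farthest on the first component, at 35.7, with the next at 23.5, and had the lowest median correlation with the other libraries, 0.954, beside 0.956 in mutant ZT0 library 2. Results are given below with and without the first 2 of these ("both"), and without all 3 where that changes a count or a value. These alternatives were added after seeing the data. Control ZT18 library 0 was chosen by clock genes that did not match its time, and leaving it out for that reason favours rhythm calls. Without both, the share of all genes called rhythmic in controls rose from 5.55% to 10.1%. Rhythm results without these libraries are therefore no independent check. Control ZT12 library 3 was not among the 3, though many clock genes were also unlike its group. Ciart was at 2.35 FPKM, against 7.91, 10.2 and 6.73, and Per2 at 1.94, against 5.20, 7.77 and 4.83. Per1 was at 10.1, against 19.2, 25.4 and 17.0, and Per3 at 4.61, against 8.61, 8.69 and 6.68. Hlf, Tef, Cry1, Cry2 and Nr1d2 were also lowest in this library, while Npas2 and Nr1d1 were highest. Its Arntl, 5.59 against 5.09, 2.88 and 5.02, and Dbp, 39.0 against 58.0, 64.8 and 44.9, lay nearer the group, with Dbp still the lowest. It was left out only in fits that dropped 1 library each. The labels number the samples, but the columns carry other numbers, and p-values measure only the spread between the libraries of a group.

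Muscle RNA for amino acid carriers was dominated by the sodium-coupled Slc38 transporters and by the creatine and taurine transporters. Averaged over the 32 libraries, Slc38a2, a sodium-coupled carrier of small neutral amino acids known to be induced when amino acids are scarce, was at 73.0 FPKM and was the highest. Slc38a4, a related carrier known from liver, followed at 60.1 FPKM. The creatine transporter gene Slc6a8 was at 37.1 and the taurine transporter gene Slc6a6 at 25.2 FPKM. Slc38a3, a glutamine carrier, and Slc38a10 were at 24.8 and 18.8 FPKM. These 6 genes made up 67.5% of the summed mean FPKM of all 53 members, and the first 3 made up 48.1%. Neighbours in this order often overlapped, and Slc6a6 and Slc38a3 had overlapping ranges of 19.2 to 41.2 and 17.2 to 43.2 FPKM.

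The Slc43 and Slc7 carriers, Slc3a2 and Slc1a5 were lower. Slc43a3, which belongs to the family by sequence and is known to carry purine nucleobases, averaged 16.6 FPKM. Slc3a2, the heavy chain that brings several Slc7 light chains to the membrane, averaged 13.7 FPKM. Among the light chains and the cationic carriers, Slc7a2, which takes up arginine, lysine and ornithine, was highest at 12.9 FPKM. Its relative Slc7a1, a carrier of the same amino acids, was at 1.23 FPKM. The light chains that pair with Slc3a2 were each below it, with Slc7a6 at 5.61, Slc7a8 at 3.75, Slc7a5 at 1.58, Slc7a10 at 1.53 and Slc7a7 at 1 FPKM. Slc7a11, the cystine-glutamate exchanger, did not pass the filter, with a highest library of 0.673 FPKM. Slc43a1 and Slc43a2, facilitative carriers of large neutral amino acids, were at 6.39 and 5.55 FPKM. Slc1a5, a sodium-dependent exchanger of neutral amino acids including glutamine, was at 11.6 FPKM.

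Carriers of the lysosome were at low, steady levels. Slc38a9, which signals arginine to mTORC1, was at 2 ± 0.251 FPKM (SD, n = 32), and the proton-coupled Slc36a1 was at 2.59 ± 0.422. Of the 29 tested members, those that varied most between libraries were Slc36a2, a proton-coupled carrier of glycine and proline, with a coefficient of variation of 94.3%, and Slc7a10, with 65.4%. The least variable tested transporter gene was Slc43a2, with 9.21%. The families differed in how many members were expressed. All 3 Slc43 genes and 8 of 9 Slc38 genes were tested, against 3 of 15 genes of Slc6, the family that holds the neurotransmitter transporters of nerve cells. The counts were 8 of 13 for Slc7 (with Slc7a6os), 3 of 4 for Slc36, 3 of 7 for Slc1 and 1 of 2 for Slc3. Of the 24 members below the filter, 22 never reached 1 FPKM. The other 2 were Slc38a1, a relative of Slc38a2, which reached 1 FPKM in 3 libraries, and Slc6a13, which did so in 1 library, at 1.48 FPKM.

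**Figure D1:**
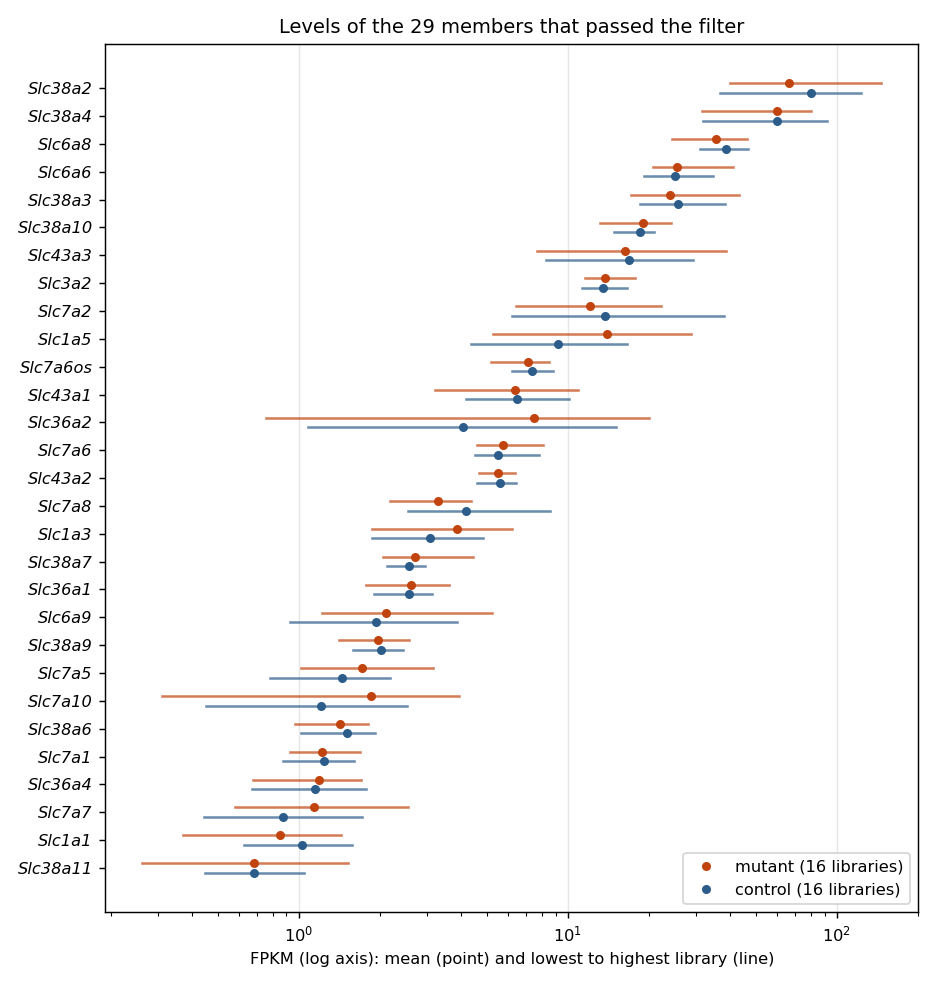
Level of each of the 29 tested members in FPKM on a log axis, with mutants (16 libraries) above controls (16 libraries) for each gene; points are means and lines run from the lowest to the highest library. Slc38a2, Slc38a4 and Slc6a8 lie at the top, and the ranges of mutants and controls overlap for every gene.

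Time of day was tested with a 24 h cosine and sine in the same model for all genes, and a member was called at an adjusted p under 0.05. Over both genotypes 6 of 29 members were called, against 11.4% of all genes tested. They were Slc7a2, Slc43a3 and Slc38a2, with fitted peaks between ZT 19.0 and 23.9, Slc38a4 and Slc6a8, with peaks at ZT 6.4 and 5.95, and Slc7a8, with a peak at ZT 16.8. The members' median amplitude was 0.11 on the log2 scale (mean to peak), and that of all tested genes was 0.07. An amplitude is never negative and rises with the spread between libraries. For the difference in rhythm between genotypes, where 0 members and 0 genes were called, the medians were 0.16 and 0.11. Pools of 8 samples were sequenced per the labels' protocols, and neither the pool nor the harvest day of a mouse is given in the sources used here, so an effect of either cannot be told apart from time. The RNA is from whole muscle, in which fewer cells of a type and less RNA per cell cannot be told apart.

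Slc7a2 (chromosome 8, 40862367 to 40922070; all positions in mm10), the carrier of arginine and lysine, had the largest amplitude of the members. In mutants it was at 11.9, 9.60, 17.5 and 11.6 at ZT0, 9.64, 6.40, 6.52 and 7.30 at ZT6, 13.3, 9.37, 10.1 and 8.99 at ZT12 and 18.6, 16.7, 14.0 and 22.3 at ZT18 (FPKM). In controls it was at 10.4, 13.0, 13.5 and 22.5 at ZT0, 8.29, 7.45, 7.09 and 6.19 at ZT6, 9.88, 9.96, 9.61 and 10.6 at ZT12 and 10.2, 16.5, 26.6 and 38.1 at ZT18. It was lowest at ZT6 in both genotypes, and no ZT18 library of either genotype was as low as any ZT6 library of its genotype. Over both genotypes it had an amplitude of 0.66 (log2, mean to peak; SE 0.09; limma adjusted p = 2.67e-05) and a fitted peak at ZT 19.0. In FPKM + 1 this was a fold of 2.49 between fitted peak and trough. Control ZT18 library 0, a library with clock genes unlike its group, was the lowest of its group. Without both libraries that stand apart the amplitude was 0.73 (limma adjusted p = 4.63e-07).

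Slc43a3 (chromosome 2, 84936646 to 84958509) was also low at ZT6. In mutant libraries it was at 11.1, 13.7, 38.6 and 20.7 at ZT0, 10.5, 10.0, 7.67 and 10.4 at ZT6, 22.9, 24.5, 10.2 and 14.2 at ZT12 and 8.69, 20.4, 18.7 and 19.3 at ZT18 (FPKM). Control libraries were at 26.0, 27.8, 18.4 and 22.0 at ZT0, 8.72, 10.6, 11.7 and 8.28 at ZT6, 10.8, 14.5, 12.2 and 10.4 at ZT12 and 13.9, 24.8, 20.03 and 29.2 at ZT18. In controls, all ZT0 and ZT18 libraries lay above all ZT6 libraries. In mutants this held for ZT0, while at ZT18 library 0 lay within the ZT6 range. Over both genotypes it had an amplitude of 0.51 (log2, mean to peak; SE 0.10; limma adjusted p = 0.00417) and a fitted peak at ZT 20.1. The highest value of all, in mutant ZT0 library 2, is that of a library that stands apart, and without both such libraries the amplitude was 0.51 (limma adjusted p = 0.000702). Of 6 endothelial markers, 4 were also called rhythmic over both genotypes. Their summed FPKM at ZT0, 6, 12 and 18 averaged 168, 146, 133 and 131 in mutants and 179, 144, 134 and 122 in controls. It was lowest at ZT18 and not at ZT6, and the part of these cells in the Slc43a3 values was not tested.

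Slc38a2 (chromosome 15, 96687392 to 96699698) was highest at ZT0 and lowest at ZT12. Mutant levels were at 77.1, 63.2, 147 and 70.2 at ZT0, 65.0, 58.7, 60.0 and 69.4 at ZT6, 40.7, 55.5, 40.0 and 62.8 at ZT12 and 54.1, 62.3, 79.6 and 54.1 at ZT18 (FPKM). Those of controls were at 105, 123, 92.8 and 78.3 at ZT0, 67.3, 77.3, 72.6 and 93.9 at ZT6, 46.2, 74.0, 76.2 and 36.8 at ZT12 and 106, 103, 52.5 and 72.8 at ZT18. Within each genotype, every ZT0 library lay above every ZT12 library. Over both genotypes it had an amplitude of 0.40 (log2, mean to peak; SE 0.09; limma adjusted p = 0.00742) and a fitted peak at ZT 23.9. Mutant ZT0 library 2 lay far above the other 3 of its group. Without both libraries that stand apart the amplitude was 0.33 (limma adjusted p = 0.0131).

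Slc38a4 (chromosome 15, 96994823 to 97055956), which lies 295 kb from Slc38a2 on the same chromosome, was highest at ZT6. The mutant libraries were at 74.7, 47.2, 66.2 and 57.3 at ZT0, 75.4, 80.4, 70.5 and 71.7 at ZT6, 42.1, 67.0, 78.2 and 58.7 at ZT12 and 61.1, 35.7, 44.1 and 31.4 at ZT18 (FPKM). The control libraries were at 53.7, 42.7, 61.9 and 39.7 at ZT0, 81.2, 92.2, 80.6 and 78.7 at ZT6, 45.1, 50.5, 57.4 and 73.3 at ZT12 and 84.5, 52.1, 36.4 and 31.9 at ZT18. In mutants, no ZT18 library reached the ZT6 range. In controls, library 0 at ZT18 did and the other 3 did not, and no ZT0 library did. Over both genotypes it had an amplitude of 0.40 (log2, mean to peak; SE 0.08; limma adjusted p = 0.00367) and a fitted peak at ZT 6.42. Without both libraries that stand apart the amplitude was 0.47 (limma adjusted p = 0.000205). The neighbouring genes Slc38a2 and Slc38a4 were thus called with peaks at ZT 23.9 and 6.42. Slc43a1, which lies 73.1 kb from Slc43a3, was not called (limma adjusted p = 0.199). It was called without both libraries, with an amplitude of 0.27 (limma adjusted p = 0.0291). The distance of up to 500 kb that counted as neighbouring was set after the values were seen.

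Slc6a8 (chromosome X, 73673133 to 73682500), the creatine transporter gene, had a small amplitude. In mutants the libraries were at 43.4, 30.7, 46.3 and 30.9 at ZT0, 43.2, 35.4, 35.2 and 34.7 at ZT6, 44.0, 38.2, 36.7 and 36.1 at ZT12 and 24.4, 30.3, 31.3 and 25.5 at ZT18 (FPKM). Controls were at 38.4, 40.8, 36.9 and 42.2 at ZT0, 38.2, 45.9, 44.4 and 46.9 at ZT6, 39.2, 37.8, 40.1 and 34.3 at ZT12 and 37.3, 33.3, 31.0 and 33.2 at ZT18. In both genotypes every ZT18 library lay below every ZT6 library. Over both genotypes it had an amplitude of 0.19 (log2, mean to peak; SE 0.04; limma adjusted p = 0.00469) and a fitted peak at ZT 5.95. In FPKM + 1 this was a fold of 1.31 between fitted peak and trough. Without both libraries that stand apart the amplitude was 0.21 (limma adjusted p = 0.00137).

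Slc7a8 (chromosome 14, 54722215 to 54781886), a light chain that exchanges neutral amino acids, was close to the threshold. Mutants were at 3.52, 3.01, 4.36 and 4.08 at ZT0, 3.41, 2.26, 2.54 and 2.18 at ZT6, 3.53, 3.39, 2.86 and 3.25 at ZT12 and 2.43, 4.13, 4.32 and 3.48 at ZT18 (FPKM). Values of controls were at 2.97, 3.89, 3.38 and 3.61 at ZT0, 3.04, 2.54, 3.14 and 3.45 at ZT6, 3.47, 8.58, 5.51 and 3.59 at ZT12 and 4.14, 6.68, 3.64 and 5.47 at ZT18. In controls every ZT12 library lay above every ZT6 library, though by only 3.47 against 3.45 FPKM at the nearest, and in mutants the ZT6 and ZT18 ranges overlapped. Over both genotypes it had an amplitude of 0.23 (log2, mean to peak; SE 0.06; limma adjusted p = 0.0463) and a fitted peak at ZT 16.8. The call was lost in 22 of 32 fits that left out 1 library each (adjusted p from 0.0182 to 0.102).

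**Figure D2:**
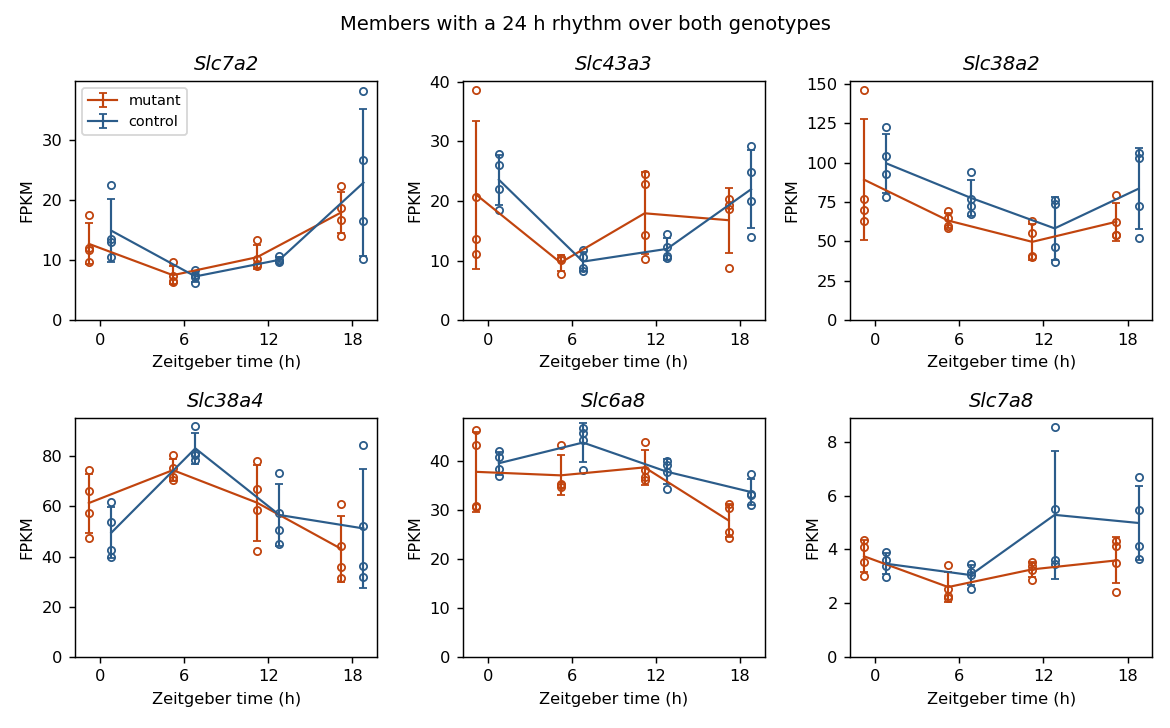
FPKM against Zeitgeber time (h) for the 6 members called over both genotypes, mutant (left, orange) and control (right, blue) at each time; open circles are single libraries, and lines join group means with SD bars (n = 4). Slc7a2 and Slc43a3 are lowest at ZT6, where Slc38a4 is highest, and Slc38a2 is lowest at ZT12.

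Among the members that were not called, Slc6a9, the glycine transporter gene, was low at ZT6 and high at ZT0 in controls. It was at 2.39, 3.57, 2.53 and 3.87 FPKM at ZT0 and 0.927, 1.39, 1.45 and 1.17 at ZT6, with no overlap. In mutants the ZT0 libraries were at 1.68, 1.56, 5.24 and 1.43 and the ZT6 libraries at 2.21, 1.69, 1.22 and 1.34, with overlap. Its 24 h amplitude over both genotypes was 0.22 (SE 0.07; limma adjusted p = 0.115). It passed when all 3 contrasts between times were tested, which adds a 12 h component (limma adjusted p = 0.0469; 11.6% of all genes tested passed), and without both libraries that stand apart, where its amplitude was 0.20 (limma adjusted p = 0.0269). The heavy chain gene Slc3a2 was nearly level, with group means from 12.3 to 14.7 FPKM and an amplitude of 0.09 (log2; SE 0.04; limma adjusted p = 0.243) and a fitted peak at ZT 19.8. Slc7a5 and Slc7a6, light chains of the same complex, had amplitudes of 0.07 and 0.07 (limma adjusted p = 0.820 and 0.581). The lysosomal carriers Slc38a9 and Slc36a1 had amplitudes of 0.04 and 0.09 (limma adjusted p = 0.718 and 0.334).

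**Figure D3:**
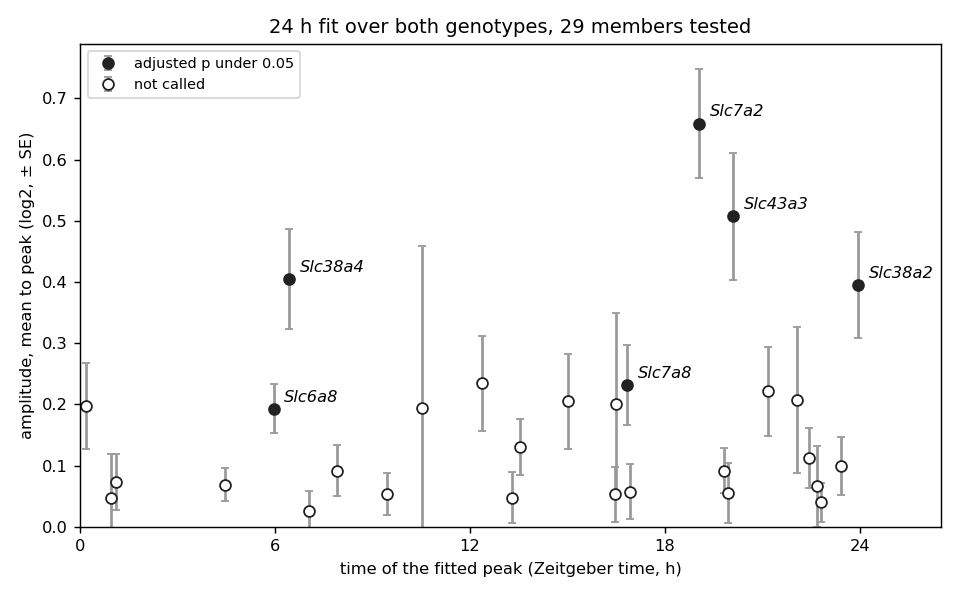
Amplitude (log2, mean to peak, ± SE) against the time of the fitted peak (Zeitgeber time, h) of the 29 tested members over both genotypes; filled points were called at an adjusted p under 0.05. Slc7a2 and Slc43a3 have the largest amplitudes, with peaks at ZT 19.0 and 20.1, and Slc38a4 and Slc6a8 peak near ZT6.

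Within mutants 1 of 29 members was called, Slc7a2, against 3.92% of all genes. Within controls 2 of 29 were called, Slc7a2 and Slc43a3, against 5.55%. Slc7a2 had an amplitude of 0.59 in mutants (SE 0.13; limma adjusted p = 0.0148) and 0.73 in controls (SE 0.13; adjusted p = 0.00175). Slc43a3 had 0.35 in mutants (SE 0.15; limma adjusted p = 0.427) and 0.70 in controls (SE 0.15; adjusted p = 0.0121). The test of a difference in rhythm between genotypes called 0 members and 0 of all genes (limma). At an unadjusted p under 0.05 it called 0 members and 5.34% of all genes, and the smallest adjusted p of a member was 0.880. Fitted peaks in mutants and controls were at ZT 0.158 and 23.7 for Slc38a2 and at ZT 5.95 and 6.90 for Slc38a4. For Slc6a8 they were at ZT 6.51 and 5.34.

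The counts within a genotype depended on the libraries that stand apart. Their choice rested in part on clock genes, which favours rhythm calls in fits without them. Without both, 5 members were called in mutants, against 5.02% of all genes, and 10 in controls, against 10.1%. In mutants they were Slc7a2, Slc38a4, Slc43a1, Slc7a1 and Slc6a8, with adjusted p from 0.00202 to 0.0493. In controls they were Slc7a2, Slc43a3, Slc38a2, Slc38a4, Slc6a8, Slc7a8, Slc3a2, Slc6a9, Slc6a6 and Slc36a4, with adjusted p from 2.38e-05 to 0.0478. The difference between genotypes still called 0 members. Over both genotypes the count was then 8, against 12.8% of all genes, with Slc43a1 and Slc6a9 added to the 6. With mutant ZT12 library 1 left out as well, the counts were 3 in mutants (Slc7a2, Slc38a4 and Slc6a8), against 4.05% of all genes, 10 in controls, against 11.7%, and 8 over both genotypes, against 12.7%. The Slc7a2 call in mutants was lost without mutant ZT6 library 1 (adjusted p = 0.0526) or mutant ZT18 library 3 (0.0652).

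Genotype moved no member past the threshold. Over all times 0 of 29 members were called, against 0.0251% of all genes, and the smallest adjusted p of a member was 0.756 (limma). The median difference, mutant minus control, was 0.02 on the log2 scale for the members and 0.00 for all genes tested, with 15 members higher and 14 lower in mutants. At an unadjusted p under 0.05 the count was 6 of 29, against 6.48% of all genes, 2 of them higher in mutants, against 3.32%, and 4 lower, against 3.16%. The counts of called members were also 0 at each time, where 0.0167% of all genes were called at ZT0, ZT6 and ZT18 (all of them higher in mutants) and 0.0251% at ZT12 (0.0167% higher and 0.00835% lower). The test of a genotype difference that depends on time called 0 members and 0 genes, and at an unadjusted p under 0.05 it called 0 members and 14.1% of all genes.

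The members higher in mutants at an unadjusted p under 0.05 were Slc1a5 and Slc1a3. In mutants Slc1a5 was at 5.59, 19.4, 15.2 and 9.17 at ZT0, 8.02, 16.8, 6.89 and 9.09 at ZT6, 20.3, 28.7, 5.28 and 16.4 at ZT12 and 7.61, 15.1, 16.5 and 23.9 at ZT18 (FPKM). The 16 controls were at 7.38, 10.5, 9.16 and 9.49 at ZT0, 9.30, 4.52, 8.69 and 12.0 at ZT6, 4.37, 9.15, 12.9 and 9.22 at ZT12 and 4.82, 16.5, 8.73 and 10.9 at ZT18. At every time the mutant and control ranges overlapped, and the 5 highest of the 32 libraries were mutant. Slc1a5 averaged 14.0 ± 6.97 FPKM in mutants and 9.23 ± 3.15 in controls (SD, n = 16 each), a difference of 0.47 (SE 0.21; limma adjusted p = 0.756). The highest library, mutant ZT12 library 1, is one that stands apart, and the difference was 0.39 without it and 0.29 without all 3 such libraries (limma adjusted p = 0.991 and 0.925). Slc1a3, a glutamate and aspartate carrier, averaged 3.88 ± 1.38 FPKM in mutants and 3.08 ± 0.811 in controls, a difference of 0.23 (SE 0.11; limma adjusted p = 0.756). Its difference was largest at ZT12, where the libraries were at 6.12, 5.52, 3.96 and 4.84 FPKM in mutants and 2.01, 3.43, 3.87 and 3.76 in controls. There all 4 mutant libraries lay above all 4 control libraries, with a difference of 0.53 (SE 0.22; limma adjusted p = 0.226).

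The members lower in mutants at an unadjusted p under 0.05 were Slc7a8, Slc38a2, Slc6a8 and Slc1a1. Slc38a2 averaged 66.2 ± 24 FPKM in mutants and 79.8 ± 23.2 in controls (SD, n = 16 each), a difference of -0.27 (SE 0.12; limma adjusted p = 0.756). Its mutant group mean was the lower at each of the 4 times, with overlapping libraries. Slc7a8 averaged 3.30 ± 0.710 FPKM in mutants and 4.19 ± 1.60 in controls, a difference of -0.24 (SE 0.09; limma adjusted p = 0.756). At ZT12 its libraries were at 3.53, 3.39, 2.86 and 3.25 FPKM in mutants and 3.47, 8.58, 5.51 and 3.59 in controls, which overlapped, with a difference of -0.49 (SE 0.18; limma adjusted p = 0.191). Slc6a8 averaged 35.4 ± 6.50 FPKM in mutants and 38.7 ± 4.58 in controls, a difference of -0.14 (SE 0.06; limma adjusted p = 0.756). Its ZT18 libraries were at 24.4, 30.3, 31.3 and 25.5 FPKM in mutants and 37.3, 33.3, 31.0 and 33.2 in controls, with overlap, and the difference there was -0.27 (SE 0.11; limma adjusted p = 0.9995). Slc1a1, a carrier of glutamate and cysteine near the filter, averaged 0.853 ± 0.303 FPKM in mutants and 1.03 ± 0.251 in controls, a difference of -0.14 (SE 0.07; limma adjusted p = 0.756).

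At single times, 0, 1, 4 and 2 of 29 members had an unadjusted p under 0.05 at ZT0, ZT6, ZT12 and ZT18, against 8.46%, 10.4%, 17.4% and 2.88% of all genes. At ZT0, 4.17% of all genes were higher and 4.29% lower in mutants. The member at ZT6, Slc6a8, was lower, where 6.80% of all genes were lower and 3.59% higher. Both members at ZT18, Slc6a8 and Slc7a8, were lower, where 1.93% of all genes were lower and 0.952% higher. At ZT12, 23 of 29 members were higher in mutants, as were most of all genes tested. The median difference was 0.15 for the members and 0.06 for all genes. Of the 4 members at ZT12, Slc1a3 and Slc7a7 were higher in mutants, where 12.8% of all genes were, and Slc7a8 and Slc7a6os were lower, where 4.57% were. Slc7a7 had a difference of 0.46 (SE 0.20; limma adjusted p = 0.245) and Slc7a6os of -0.22 (SE 0.10; limma adjusted p = 0.251) at that time, and both were named after their values were seen. The members with the smallest p for a difference that depends on time were Slc6a9, Slc6a6 and Slc36a4 (limma adjusted p = 0.442, 0.484 and 0.491). Slc6a6, the taurine transporter gene, was at 24, 22.2, 41.2 and 22.7 FPKM at ZT0 in mutants and 33.9, 34.7, 26.3 and 29.2 in controls. Only the mutant library that stands apart lay above the lowest control library there. At ZT12 it was at 31.5, 28.2, 25.9 and 23.9 in mutants and 24.7, 23.3, 22.7 and 20.2 in controls, with overlap.

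**Figure D4:**
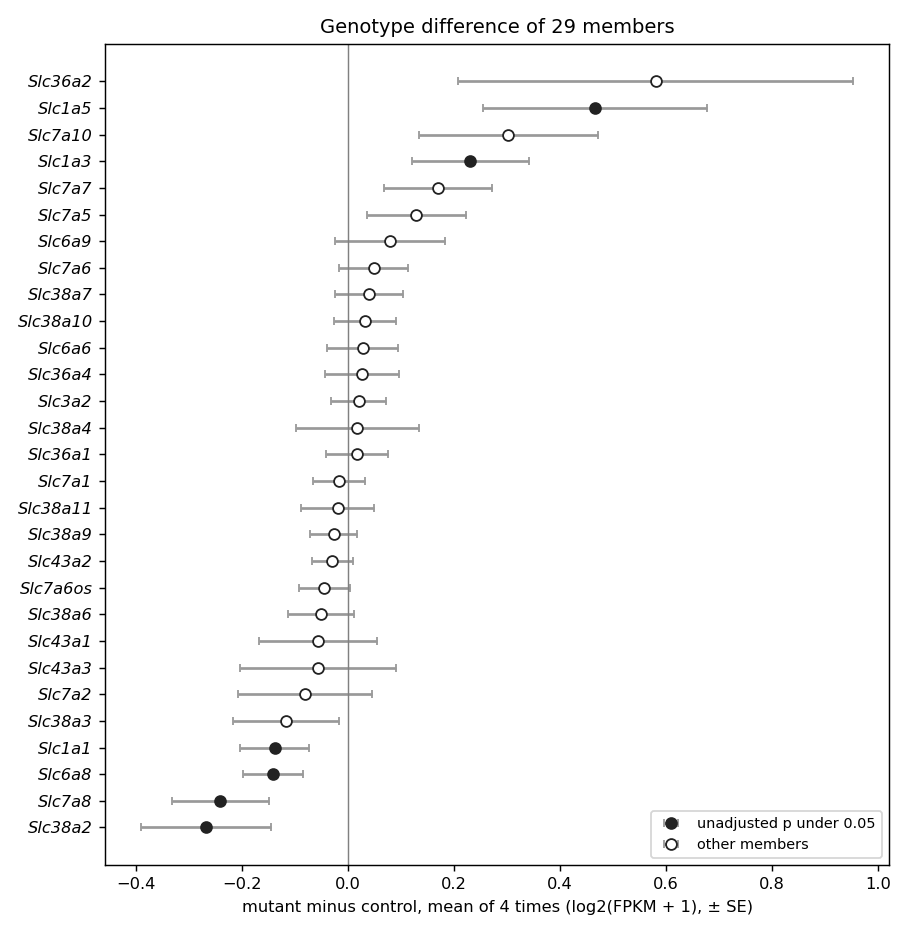
Difference of each of the 29 tested members between mutant and control, as the mean over the 4 times on log2(FPKM + 1), ± SE; filled points had an unadjusted p under 0.05. Slc1a5 and Slc1a3 lie to the right of 0 and Slc38a2, Slc7a8, Slc6a8 and Slc1a1 to the left, and 0 members passed after adjustment.

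Of the 23 named members examined, 4 varied with the level of fat cell marker genes by both Pearson's and Spearman's test, and Slc7a7 by Spearman's alone. An adipocyte score was the mean standardised log2 level of 7 marker genes, none of which was at 0 in any library. All 7 were higher in mutants on average and 0 were called by genotype. Their summed FPKM ran from 384 to 2268 in mutants (median 794) and from 397 to 1333 in controls (median 655). Over the 32 libraries, 23 relations between a named member and the score were computed, a family chosen after the data were seen, with 100000 permutations that did not keep the groups. For Slc36a2, which is known in mice as a surface marker of fat cells, the relation had Pearson's r 0.93 (permutation p = 1e-05, adjusted 7.67e-05) and Spearman's rho 0.93 (permutation p = 1e-05, adjusted 0.000115), and r was 0.93 within mutants, 0.92 within controls and 0.93 without the 2 libraries farthest from the median score. For Slc1a5 it had Pearson's r 0.86 (permutation p = 1e-05, adjusted 7.67e-05) and Spearman's rho 0.84 (permutation p = 1e-05, adjusted 0.000115), and r was 0.87 within mutants, 0.84 within controls and 0.85 without the 2 libraries farthest from the median score. For Slc1a3 it had Pearson's r 0.72 (permutation p = 1e-05, adjusted 7.67e-05) and Spearman's rho 0.71 (permutation p = 3e-05, adjusted 0.000172), and r was 0.69 within mutants, 0.73 within controls and 0.83 without the 2 libraries farthest from the median score. For Slc7a10, the small neutral amino acid exchanger that is also known as a fat cell marker, it had Pearson's r 0.72 (permutation p = 3e-05, adjusted 0.000172) and Spearman's rho 0.69 (permutation p = 3e-05, adjusted 0.000172), and r was 0.79 within mutants, 0.51 within controls and 0.64 without the 2 libraries farthest from the median score. Slc7a7 had Pearson's r 0.36 (permutation p = 0.0427, adjusted 0.197) and Spearman's rho 0.46 (permutation p = 0.00996, adjusted 0.0458). The permutation p of 1e-05 is the smallest that these permutations can give.

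Slc36a2 varied widely within each group. The 16 mutants were at 1.32, 15.4, 4.24 and 3.01 at ZT0, 2.07, 12.1, 3.63 and 3.66 at ZT6, 8.91, 19.99, 0.755 and 14.1 at ZT12 and 0.981, 3.85, 7.91 and 18.2 at ZT18 (FPKM). Its control values were at 2.08, 4.45, 3.67 and 4.82 at ZT0, 1.60, 1.30, 3.56 and 15.1 at ZT6, 1.34, 2.40, 8.04 and 5.81 at ZT12 and 1.08, 7.04, 1.54 and 1.42 at ZT18. Ranges of mutants and controls overlapped at every time, with a difference over all times of 0.58 (SE 0.37; limma adjusted p = 0.766). All 3 brown adipocyte markers (Ucp1, Cidea and Dio2) were above 0 in every library and higher in mutants on average, and 0 were called by genotype. Their summed FPKM ran from 2.28 to 277 in mutants (median 40.6) and from 1.62 to 190 in controls (median 22.6), and their part in the Slc36a2 values was not tested. With the adipocyte score and a lymphocyte score as covariates, the Slc1a5 difference was 0.21 in place of 0.47 (limma adjusted p = 0.999). The lymphocyte markers were also higher in mutants for 7 of 7 genes, with 5 of the 7 listed at 0 in some library. Their summed FPKM ran from 1.27 to 44.5 in mutants (median 24.3) and from 1.08 to 61.0 in controls (median 2.42). For the 3 carriers with the highest levels the relation did not pass. Slc38a2 had r -0.00 (permutation p = 0.994), Slc6a8 -0.19 (0.296) and Slc38a4 -0.29 (0.101), with adjusted p of 0.994, 0.487 and 0.292. Of the 6 rhythmic members, 5 kept their call with both scores in the model, and Slc7a8 did not (adjusted p = 0.0542). In that model Slc1a3 was also called, over both genotypes (amplitude 0.21, SE 0.05; limma adjusted p = 0.0137) and in mutants (amplitude 0.33, SE 0.07; limma adjusted p = 0.0150).

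**Figure D5:**
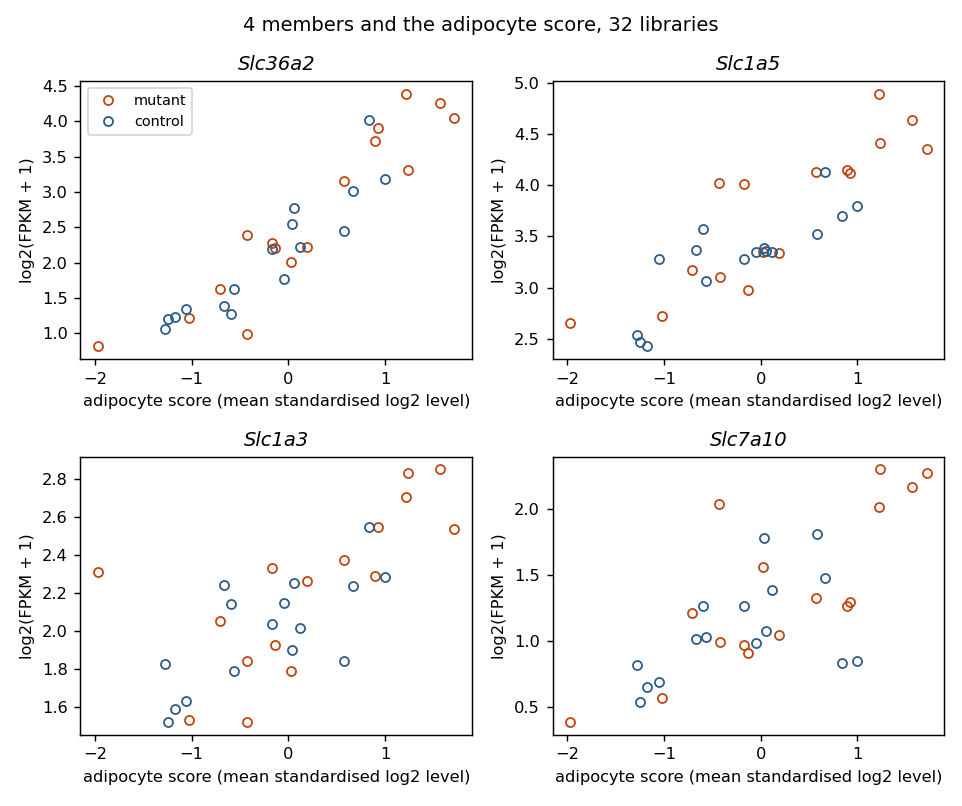
log2(FPKM + 1) of Slc36a2, Slc1a5, Slc1a3 and Slc7a10 against the adipocyte score (mean standardised log2 level of 7 markers) in 32 libraries, mutants in orange and controls in blue. All 4 are higher at higher scores in both genotypes, with r of 0.93, 0.86, 0.72 and 0.72 over all libraries.

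Genes that act with these carriers were examined in 6 lists. Over both genotypes 12 of their 102 tested genes were called for rhythm, or 11.8%, close to the 11.4% of all genes, and 0 were called by genotype over all times or at any time. In the amino acid response, the transcription program of ATF4, 5 of 23 tested genes were called over both genotypes, 3 with a peak before ZT12 and 2 after. They include Cebpb, a transcription factor (amplitude 0.60, SE 0.09, peak ZT 19.3, limma adjusted p = 8.23e-05), and Ddit3, which encodes CHOP (amplitude 0.27, SE 0.05, peak ZT 1.92, limma adjusted p = 0.000376). Chac1, which degrades glutathione, had the largest amplitude of the list (amplitude 1.12, SE 0.20, peak ZT 17.1, limma adjusted p = 0.000901). Among genes that interconvert glutamine, glutamate, aspartate, alanine and proline, 3 of 12 were called, all with peaks after ZT12. They were Prodh, a proline oxidase (amplitude 0.51, SE 0.07, peak ZT 20.3, limma adjusted p = 1.89e-05), the alanine transaminase Gpt2 (amplitude 0.19, SE 0.03, peak ZT 18.1, limma adjusted p = 0.00105) and the aspartate transaminase Got1 (amplitude 0.15, SE 0.04, peak ZT 21.2, limma adjusted p = 0.0373). Of the 33 genes of lysosomal amino acid sensing by mTORC1, 2 were called, a lower share than the 11.4% of all genes. They were Gatsl3, which encodes the arginine sensor CASTOR1 (amplitude 0.30, SE 0.07, peak ZT 16.6, limma adjusted p = 0.0188), and Rragb, a Rag GTPase (amplitude 0.12, SE 0.03, peak ZT 17.9, limma adjusted p = 0.0276).

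None of the 20 genes of branched-chain amino acid breakdown was called for rhythm, and 0 had an unadjusted p under 0.05. Shares near the 11.4% of all genes were called in the 2 smallest lists. Of 9 genes of creatine and taurine metabolism 1 was called, Fmo1, a monooxygenase (amplitude 0.42, SE 0.09, peak ZT 20.9, limma adjusted p = 0.00592). Among 8 amino acid transporter genes outside the 7 families 1 was called, Slc16a10, which carries aromatic amino acids (amplitude 0.28, SE 0.04, peak ZT 7.38, limma adjusted p = 0.000111). Median amplitudes were 0.12 for the amino acid response, 0.11 for glutamate and alanine conversion, 0.07 for mTORC1 sensing and 0.04 for branched-chain breakdown, beside 0.11 for the members and 0.07 for all genes. Of 18 core clock genes, 15 were called, with a median amplitude of 0.61.

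Promoter sequence was looked up in RefSeq (GRCm38.p6), as the 250 bases before and 50 after the listed start nearest to that of the measured gene. Entries matched 36 of the 53 members and 21 of the 29 tested, among them 3 of the 6 rhythmic members. Both strands were searched for 7 motifs, given with the share of all 32851 promoters that hold each. They were the E-box CACGTG bound by the clock activators (7.15%), the D-box TTATGTAA bound by DBP and its relatives (0.938%), and the ROR element as its core TAGGTCA (2.61%) or with its AT-rich flank (0.219%). The others were the glucocorticoid element by its full palindrome (0.00913%), the amino acid response element TGATGNAA (3.97%) and TTGCATCA, bound by C/EBP and ATF4 (0.895%). Matches of the longer ROR element lie within those of its core. The promoters of Slc38a2, Slc38a4 and Slc7a8 are shown because these members had a rhythm, and none holds any of the 7 motifs. That of Slc36a1, whose rhythm was not called, is shown because it holds 2 E-boxes, printed in capitals, which begin 31 and 3 bases before the start site. This set was chosen after the search was seen. The windows are chr15:96699679-96699978 (minus strand) for Slc38a2, chr15:97055907-97056206 (minus strand) for Slc38a4, chr14:54781837-54782136 (minus strand) for Slc7a8 and chr11:55204090-55204389 (plus strand) for Slc36a1, each read 5′ to 3′.
Slc38a2: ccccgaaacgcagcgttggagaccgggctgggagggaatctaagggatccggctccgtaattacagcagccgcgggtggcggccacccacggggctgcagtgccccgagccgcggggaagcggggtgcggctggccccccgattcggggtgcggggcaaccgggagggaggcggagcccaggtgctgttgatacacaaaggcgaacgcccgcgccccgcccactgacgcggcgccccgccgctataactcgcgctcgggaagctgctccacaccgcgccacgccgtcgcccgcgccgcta
Slc38a4: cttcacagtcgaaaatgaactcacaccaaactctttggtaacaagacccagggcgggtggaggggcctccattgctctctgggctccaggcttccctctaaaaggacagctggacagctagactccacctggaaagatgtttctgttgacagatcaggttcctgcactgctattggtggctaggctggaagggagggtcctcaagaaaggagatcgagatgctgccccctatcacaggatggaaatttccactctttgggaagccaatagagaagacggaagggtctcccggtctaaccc
Slc7a8: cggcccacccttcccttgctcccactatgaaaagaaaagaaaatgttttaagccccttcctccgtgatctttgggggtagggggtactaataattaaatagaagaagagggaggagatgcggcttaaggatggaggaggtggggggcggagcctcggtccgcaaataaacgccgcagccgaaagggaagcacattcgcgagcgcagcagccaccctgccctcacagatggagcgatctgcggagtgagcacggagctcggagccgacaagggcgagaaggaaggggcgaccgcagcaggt
Slc36a1: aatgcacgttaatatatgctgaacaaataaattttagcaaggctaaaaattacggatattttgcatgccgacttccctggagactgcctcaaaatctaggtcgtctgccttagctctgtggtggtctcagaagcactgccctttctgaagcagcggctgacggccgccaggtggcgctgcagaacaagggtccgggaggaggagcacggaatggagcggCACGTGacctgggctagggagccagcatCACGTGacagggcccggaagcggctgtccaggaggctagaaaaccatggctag

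GC content was 73.0% in the Slc38a2 window, 53.0% in that of Slc38a4, 58.0% in that of Slc7a8 and 54.7% in that of Slc36a1. An E-box was present in 3 of the 21 tested members with an entry, Slc43a1, Slc38a7 and Slc36a1, and in 0 of the 3 rhythmic ones. The starts used for Slc43a1 and Slc3a2 lay 915 and 9472 bases from those of the measured genes. An amino acid response element was present in 1 tested member. These matches describe letters in a window and not sites of binding. Sequence outside the window was not searched, so a window without a match does not show that the gene lacks the motif.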

How the data were processed

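The authors deposited 1 table of FPKM per gene and library, with mm10 as the genome build per the submitters' processing notes; the aligner, quantifier and annotation are not given in the sources used here. Per the labels' protocols, stranded mRNA libraries were sequenced from 1 end over 100 cycles. Columns named WT and TG with a time and a library number were read as control and mutant of that time, with TG taken as the mice with the Cre transgene. Table starts, which count from 0, were raised by 1.

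Values were tested as log2(FPKM + 1) in limma 3.58.1 (R 4.3.3) with 1 mean per group over all 32 libraries, a trended prior (3.37 degrees of freedom, beside 24 residual), on 11975 genes that reached 1 FPKM in 4 or more libraries. In all, 10 tests were made (24 h rhythm in mutants, in controls, over both and its difference; genotype over all times, at each time and by time), with 2-sided p-values adjusted by the Benjamini-Hochberg method over all genes and calls under 0.05. Alternatives were a pseudocount of 0.1, no filter or a mean of at least 5 FPKM, quantile normalisation, array weights, scores as covariates, fewer groups in the fit, all contrasts between times, a block on library number, and libraries left out. Relative depth came from 836 genes; 65.2% of their low values were whole multiples, to within 0.1, of a step fitted to them. The scripts were tested on simulated data. Permutations and promoter searches used Python 3.11.15, numpy 2.4.6 and scipy 1.17.1.

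Members were named if called in a test, if highest in their family, if among the smallest p for genotype, or if on a list of 20 well-known carriers; list genes were named if called, at most 3 per list. The members, lists and tests were chosen with earlier results of these data known. A further table with the authors' rhythm statistics was not used here.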

Additional observations from a re-analysis of the deposited data

Results flagged for a closer look

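In 18 of 232 groups of 4 libraries (29 members in 8 groups), the highest or lowest library lay far from the other 3, with a gap to the nearest above the 95% critical value of Dixon's test. Chance alone does this in about 1 in 20 groups. All values are FPKM, each followed by that of the nearest library of its group.

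Mutant ZT0 library 2 passed the critical value as the highest of its group for 5 members. It had Slc38a2 at 147 against 77.1, Slc6a6 at 41.2 against 24 and Slc6a9 at 5.24 against 1.68. Slc7a1 was at 1.68 against 1.01 and Slc36a4 at 1.36 against 0.929. This library was also the highest of its group, without passing the critical value, for other members, among them Slc7a2 and Slc43a3. It is 1 of the libraries that stand apart, and its part in the rhythm results is given with them.

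Mutant ZT18 library 0 passed the critical value as the lowest of its group for 3 members. They were Slc43a3 at 8.69 against 18.7, Slc38a9 at 1.41 against 1.97 and Slc36a4 at 0.675 against 1.37. That library was also the lowest, without passing the critical value, for other members, among them Slc6a8 and Slc3a2. Slc36a2 stood out in 3 groups, always by a high library. These were at 12.1 against 3.66 in mutants at ZT6, 15.1 against 3.56 in controls at ZT6, and 7.04 against 1.54 in controls at ZT18. The same 3 libraries had the highest summed adipocyte markers of their groups, at 1289, 1287 and 1084 FPKM. Their summed brown adipocyte markers were also the highest, at 148, 190 and 61.8 FPKM. The part of either cell type was not tested.

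The other 7 were single groups. In mutants, Slc6a8 at ZT6 was at 43.2 against 35.4, Slc43a3 at ZT6 at 7.67 against 10.0 and Slc36a4 at ZT12 at 1.71 against 1.06. In controls at ZT12, Slc38a10 was at 17.1 against 20.2, Slc43a1 at 7.81 against 6.50 and Slc6a9 at 1.01 against 1.62. Slc7a7 in controls at ZT0 was at 1.72 against 0.912.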

How the results depend on the processing

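The count of members with a rhythm over both genotypes, 6, was 5 to 7 when each library was left out in turn and 10 with array weights. The count within mutants, 1, was 2 with quantile normalisation, with both scores as covariates and with all 3 contrasts between times, 4 with array weights, 5 without both libraries and 3 without all 3 libraries that stand apart. It was 0 to 3 when each library was left out in turn, with 0 when library 1 of mutant ZT6 or library 3 of mutant ZT18 was left out, 3 without mutant ZT0 library 1, and 2 without mutant ZT0 library 2, mutant ZT18 library 0 or control ZT18 library 0. The count within controls, 2, was 12 with array weights, 10 without both libraries, 10 without all 3 and 7 with only control libraries in the fit. It was 2 to 6 when each library was left out, with 6 without mutant ZT0 library 2 or control ZT18 library 0 and 4 without mutant ZT18 library 0; the cause was not tested. Counts for genotype and for a difference in rhythm were 0 in every alternative run. The calls of Slc7a2, Slc43a3, Slc38a2, Slc38a4 and Slc6a8 over both genotypes were kept in all alternatives run, and that of Slc7a8 was lost with no filter (adjusted p = 0.0641; with the stricter filter it was not tested), with the scores as covariates (0.0542) and with all 3 contrasts (0.0610; limma). No value changed sign. The library numbers in the table, 0 to 3 in each group, match no label of a mouse. Deviations from group means were correlated over the 28 pairs of libraries that share each number. The mean correlations were 0.19, 0.07, -0.02 and 0.06 for numbers 0 to 3. Pairs with different numbers were not set beside them, so whether the library number pairs the samples was not tested. With a block on this number, added after seeing the data, the counts of rhythmic members were 1 in mutants, 2 in controls and 6 over both, and 0 for the other comparisons. FPKM carry no counts, so the precision of low members is unknown, and differences near 1 FPKM are understated on the log2(FPKM + 1) scale.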
